A study of Homo sapiens with 60 samples.

Results

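The comparison of 100 with 20 ug/mL of Menthae Herba, the dried aerial part of mint, covers 6 of the 60 RNA sequencing libraries of the series, 3 at each dose. Members were taken from the labels, which name the extract, the dose and the replicate. The cells were HepG2, an established human hepatocellular carcinoma line that keeps many hepatocyte functions. The study exposed them for 24 h to 70% ethanol extracts of 4 single herbs and 4 decoctions, each at 3 doses, or to DMSO vehicle. RNA was counted per gene.

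The libraries used here, all of HepG2 cells for which no engineered allele is named, are those of Menthae Herba at 100 ug/mL and at 20 ug/mL. Beside them stand Menthae Herba at 500 ug/mL and DMSO vehicle, with 3 libraries each. The same 100 against 20 ug/mL step was also read in Saposhnikoviae Radix and in the decoction Guibi-tang, with 3 libraries a dose, and in the decoction Soyo-san, with 2 libraries a dose. Saposhnikoviae Radix shares set number 12 with Menthae Herba, Guibi-tang and Soyo-san belong to other sets, and vehicle carries a set label of its own. The labels do not say whether replicates came from separate cultures, so p-values measure the spread between these libraries only, which may be technical. All cells come from a single tumour line, with no other liver cell type present.

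Metallothioneins are small cysteine-rich proteins that bind zinc, copper and cadmium. Their genes are switched on by the zinc-sensing factor MTF1, which binds metal response elements in their promoters, and in liver cells they follow the amount of exchangeable zinc. Fatty acid and cholesterol synthesis genes are driven in hepatocytes by the SREBP factors, and NQO1 and SQSTM1 are among the targets of NRF2, the factor that answers electrophilic and oxidative stress.

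Metallothioneins had the lowest fold changes among the called genes, and the promoters that could be read are shown here for the metal response elements they hold. Each is a run of 300 bases, from 250 before to 50 after the gene's start, 5′ to 3′ on the gene's strand, taken from RefSeq (GRCh38.p14). Capitals mark matches of TGCACNC or TGCGCNC, the core of the element, on either strand; on one strand the 2 motifs cannot match at the same place. MT2A, chr16:56608334-56608633 on the + strand, held 8 matches, MT1X, chr16:56682220-56682519 on the + strand, held 4, and SLC30A1, the plasma membrane zinc exporter, chr1:211579112-211579411 on the - strand, held 2.
MT2A: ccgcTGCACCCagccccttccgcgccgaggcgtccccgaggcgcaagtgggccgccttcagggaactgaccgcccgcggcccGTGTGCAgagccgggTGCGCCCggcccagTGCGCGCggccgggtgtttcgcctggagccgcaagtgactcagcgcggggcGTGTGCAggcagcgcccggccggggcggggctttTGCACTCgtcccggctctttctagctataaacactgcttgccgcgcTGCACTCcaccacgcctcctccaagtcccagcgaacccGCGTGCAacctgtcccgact
MT1X: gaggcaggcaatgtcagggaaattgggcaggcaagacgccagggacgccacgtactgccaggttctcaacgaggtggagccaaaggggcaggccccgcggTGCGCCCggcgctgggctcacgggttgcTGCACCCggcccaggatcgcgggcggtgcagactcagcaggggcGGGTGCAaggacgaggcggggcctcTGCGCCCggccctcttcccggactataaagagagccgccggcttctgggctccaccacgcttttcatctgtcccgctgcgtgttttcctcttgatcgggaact
SLC30A1: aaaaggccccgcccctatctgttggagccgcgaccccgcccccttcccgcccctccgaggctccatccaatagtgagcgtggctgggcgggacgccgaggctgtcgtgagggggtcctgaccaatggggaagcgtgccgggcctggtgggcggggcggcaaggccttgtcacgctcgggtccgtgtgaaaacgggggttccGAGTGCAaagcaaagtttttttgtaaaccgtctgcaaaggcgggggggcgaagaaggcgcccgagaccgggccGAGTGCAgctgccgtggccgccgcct

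Of 35116 promoters of this length, 12.1% held TGCACNC, 20.0% held TGCGCNC and 29.6% held either. At least as many matches as in MT2A were found in 7 promoters (0.0199%), as in MT1X in 211 (0.601%) and as in SLC30A1 in 3020 (8.6%). Each count includes the gene's own promoter. A match is a description of the letters and not a measured binding site. The RefSeq table had entries for 3 members of the list, and MT1A, MT1E, MT1F, MT1G and MT1M are named only.

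At 100 ug/mL, 20 genes differed from 20 ug/mL, 4 higher and 16 lower. The 4 higher genes were CYP24A1, which inactivates vitamin D, MAT1A, the liver enzyme that makes S-adenosylmethionine, NQO1, a quinone reductase, and SQSTM1, the autophagy receptor p62. The 16 lower genes held 4 metallothioneins, 3 genes of fatty acid synthesis, and genes for secreted and matrix proteins such as FN1, A2M and RELN. All differences were small. Their absolute log2 fold changes lay between 0.16 and 0.61, with a median of 0.24, and none reached 2-fold. Calls were made with the edgeR quasi-likelihood test at a Benjamini-Hochberg adjusted p under 0.05 over 16982 tested genes, of which 0.118% were called (0.0236% higher and 0.0942% lower). At an unadjusted p under 0.05 there were 1140 genes (6.71%), 561 higher (3.3%) and 579 lower (3.41%). DESeq2 called 47 of the 7434 genes to which it gave an adjusted p (0.632%). Levels are given as CPM, counts scaled to a common library size with TMM factors, and log2 fold changes are of 100 over 20 ug/mL. The 20 called genes had CPM that did not overlap between the doses, which was also true of 3009 of all tested genes (17.7%, 9.17% higher and 8.54% lower).

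The count of calls depended on which libraries set the spread. The test above shared one estimate of the spread over 57 libraries in 22 groups. With only the 6 libraries of the comparison in the fit, 231 of 14798 genes were called (1.56%), 87 higher and 144 lower, and these held all 20. Leaving out 1 library at a time gave 6 to 16 calls. The count was 11 without replicate 1 at 100 ug/mL, 8 without replicate 2 at 100 ug/mL, 12 without replicate 1 at 20 ug/mL and 6 without replicate 3 at 20 ug/mL. All 20 genes kept their direction in the 17 alternatives run, and 6 of them, MT1F, MT1G, FN1, RELN, A2M and ACSS2, were called in all 17.

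**Figure D1:**
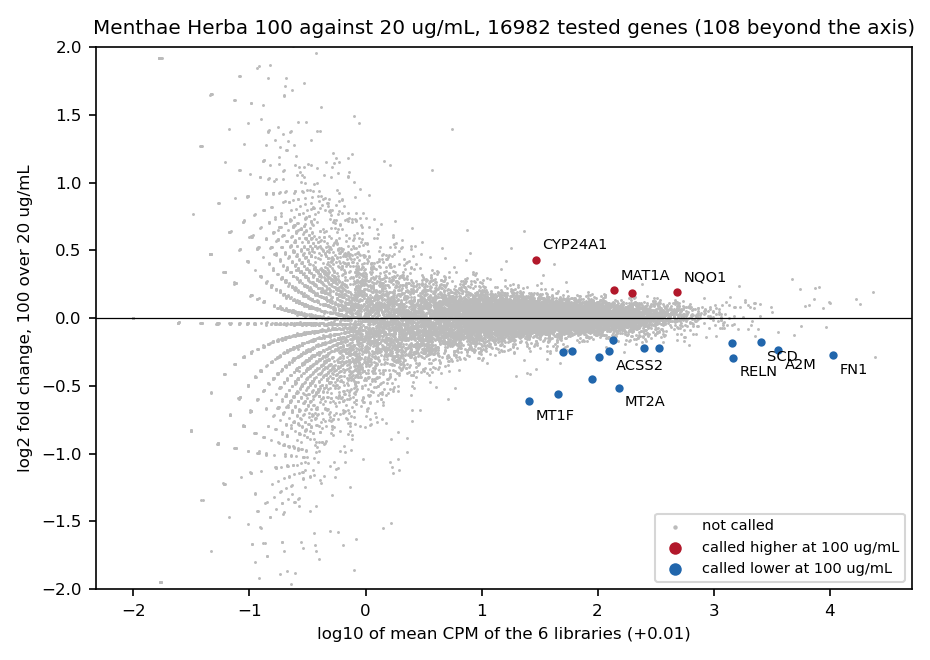
Log2 fold change of 100 over 20 ug/mL against the log10 of the mean CPM of the 6 libraries (with 0.01 added) for 16982 tested genes, with 108 genes beyond the axis. The 4 called genes above the line and the 16 below it lie at moderate to high levels, and the wide spread on the left belongs to genes of few counts.

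Metallothionein mRNA was lower at 100 ug/mL. In the list of metallothioneins and the zinc exporter SLC30A1, 4 of 8 tested members were called lower, against 0.0942% of all tested genes. None was called higher, and all 8 had a negative log2 fold change. The list's median was -0.48, beside 0.0015 over all tested genes. Lower, non-overlapping groups were found for 7 of the 8, against 8.54% of all tested genes. The ninth member, MT1H, was in the count table but had too few counts to be tested.

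MT1F, on chromosome 16 from 56657694 to 56660698 (GRCh38, GENCODE 29, + strand), had 20.2, 21.8 and 19.5 CPM at 100 ug/mL and 30.4, 32.6 and 30.9 CPM at 20 ug/mL. All 3 libraries at 100 ug/mL lay below all 3 at 20 ug/mL. Its log2 fold change of -0.61 ± 0.10 (SE) was the lowest among the called genes, with an adjusted p of 0.000943 in the edgeR test. MT1G, at 56666731 to 56668065 on the - strand of the same chromosome, had 36.3, 37.1 and 38.1 CPM at 100 ug/mL and 56.7, 53.5 and 54.4 CPM at 20 ug/mL. The groups did not overlap, and its log2 fold change was -0.56 ± 0.10 (adjusted p 0.00245 in edgeR).

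MT2A, whose promoter held the most matches above, had 115, 135 and 126 CPM at 100 ug/mL and 179, 173 and 186 CPM at 20 ug/mL. Its 3 replicates at 100 ug/mL were spread, but the highest library at 100 ug/mL was still below the lowest at 20 ug/mL. The log2 fold change was -0.51 ± 0.10 with an adjusted p of 0.0152 in edgeR. MT1E had 74.0, 77.4 and 77.5 CPM at 100 ug/mL and 107, 102 and 103 CPM at 20 ug/mL, with a log2 fold change of -0.45 ± 0.09 and an edgeR adjusted p of 0.00828. Its 2 groups were narrow and far apart. The call of MT2A was lost without replicate 1 or 3 at 100 ug/mL and without replicate 1 or 3 at 20 ug/mL. That of MT1E was lost without replicate 1 or 2 at 100 ug/mL and without replicate 1 or 3 at 20 ug/mL.

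The remaining members were not called by the edgeR test over 57 libraries. MT1X had 24.9, 25.2 and 26.5 CPM at 100 ug/mL and 32.0, 33.9 and 33.6 CPM at 20 ug/mL, groups that did not overlap, with a log2 fold change of -0.38 ± 0.10 and an edgeR adjusted p of 0.158. MT1M, at 0.27, 0.278 and 0.344 CPM at 100 ug/mL and 1.14, 1.02 and 0.719 CPM at 20 ug/mL, had few counts, a log2 fold change of -1.68 ± 0.39 and an adjusted p of 0.0665 in edgeR. MT1A was near 1.7 CPM at 100 ug/mL and 1.83 CPM at 20 ug/mL, and its groups overlapped. SLC30A1 had 107, 103 and 97.6 CPM at 100 ug/mL and 113, 112 and 111 CPM at 20 ug/mL, a log2 fold change of -0.13 ± 0.06 that was not called (edgeR adjusted p 0.729). With only the 6 libraries in the fit, 6 of the 8 members were called lower, against 0.973% of all genes. MT1M and MT1X were the additional ones, and both were also called with no filter on low counts and with the trends on GC content and length removed. DESeq2 called 5 of the 6 members to which it gave an adjusted p lower, against 0.43% of all such genes. MT1X was among the 5, beside MT1E, MT1F, MT1G and MT2A.

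Metallothionein genes are near-identical copies, so the way the counting divided reads between them is uncertain for each gene, while their sum is less affected. Summed over the family, plain CPM was 270, 297 and 287 at 100 ug/mL and 408, 399 and 411 at 20 ug/mL. The means were 285 ± 13.9 CPM at 100 ug/mL and 406 ± 6.01 CPM at 20 ug/mL (SD, n = 3 each). The exact two-sided permutation test gave p = 0.1, the smallest that 3 against 3 libraries can give.

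**Figure D2:**
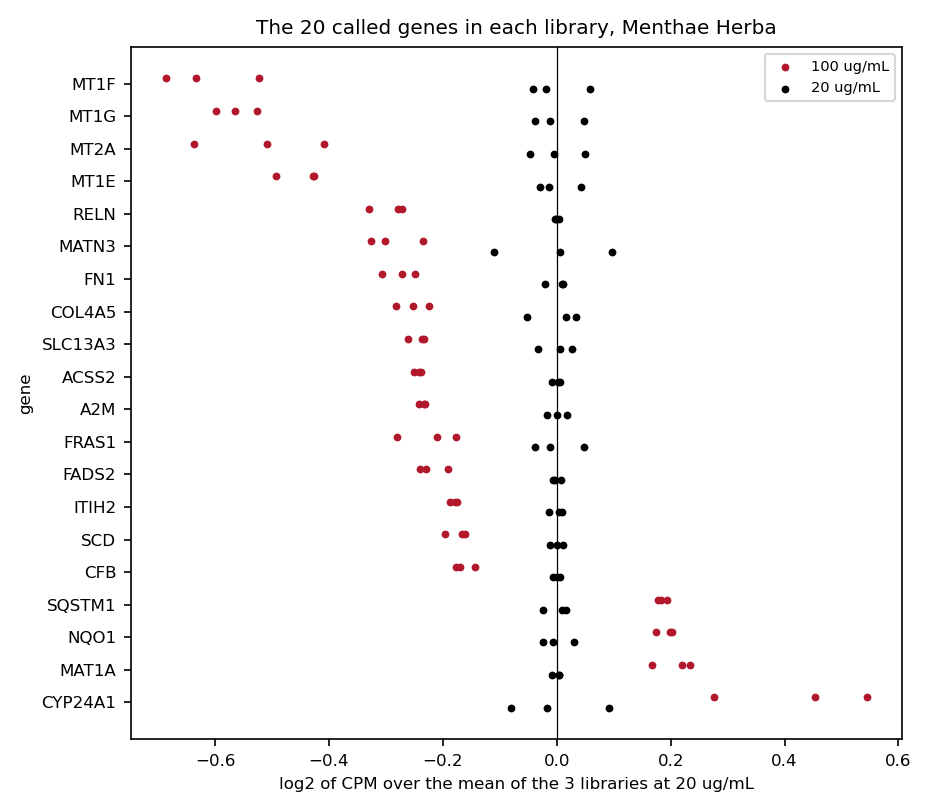
Log2 of CPM over the mean of the 3 libraries at 20 ug/mL for each called gene (rows), 1 point per library, 100 ug/mL in red and 20 ug/mL in black. In each of the 20 genes the red points lie on one side of the black points.

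Genes of fatty acid synthesis were lower at 100 ug/mL. In that list 3 of 13 tested members were called lower, against 0.0942% of all tested genes. None was called higher, and 12 had a negative log2 fold change. The list's median was -0.09, and 9 members had lower, non-overlapping groups, against 8.54% of all tested genes. ACSS2, which makes cytosolic acetyl-CoA from acetate, had the lowest adjusted p of all genes. Its level was 115, 116 and 116 CPM at 100 ug/mL and 137, 137 and 136 CPM at 20 ug/mL. Replicates differed by less than 2 CPM within each dose, far less than the gap between doses. The log2 fold change was -0.24 ± 0.04 with an adjusted p of 0.000517 in edgeR.

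FADS2, the desaturase that starts the making of polyunsaturated fatty acids, had 236, 228 and 230 CPM at 100 ug/mL and 269, 271 and 268 CPM at 20 ug/mL. Every library at 100 ug/mL was lower, and the log2 fold change was -0.22 ± 0.04 (adjusted p 0.00615 in edgeR). SCD, which makes monounsaturated fatty acids, had 2401, 2353 and 2409 CPM at 100 ug/mL and 2674, 2695 and 2718 CPM at 20 ug/mL. The groups did not overlap, the log2 fold change was -0.17 ± 0.03, and the edgeR adjusted p was 0.00615. The calls of FADS2 and SCD were lost without replicate 2 at 100 ug/mL and without replicate 3 at 20 ug/mL, and that of FADS2 also without replicate 3 at 100 ug/mL. ACLY, FASN and the regulator SREBF1 were not called, with log2 fold changes of -0.09 ± 0.04, -0.05 ± 0.06 and -0.10 ± 0.06.

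In the list of cholesterol synthesis and uptake, no member was called by edgeR and DESeq2 called 1, DHCR7. An unadjusted p under 0.05 was found for 11 of 24, against 6.71% of all tested genes. All 24 members had a negative log2 fold change, with a median of -0.12. Lower, non-overlapping groups were found for 17, against 8.54% of all tested genes. DHCR7, the last step of the pathway, had 257, 246 and 238 CPM at 100 ug/mL and 283, 275 and 275 CPM at 20 ug/mL, a log2 fold change of -0.17 ± 0.04 (edgeR adjusted p 0.158). The doses did not overlap. With only the 6 libraries in the fit, 12 of 23 tested members were called lower and none higher, among them HMGCS1, SQLE, LSS and DHCR7, against 0.973% of all genes called lower in that fit.

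Secreted and matrix proteins made up most of the other lower genes; matrix genes were grouped after their values were seen and form no list. FN1, fibronectin, a major protein of plasma and matrix, had 9804, 9960 and 9572 CPM at 100 ug/mL and 11918, 11667 and 11924 CPM at 20 ug/mL. The gap between the groups was wider than the range within either. Its log2 fold change was -0.28 ± 0.04 with an adjusted p of 0.000943 in edgeR. RELN, the secreted glycoprotein reelin, had 1343, 1350 and 1296 CPM at 100 ug/mL and 1628, 1625 and 1634 CPM at 20 ug/mL, a log2 fold change of -0.29 ± 0.05 (edgeR adjusted p 0.00351). Its replicates at 20 ug/mL were almost equal and all above those at 100 ug/mL.

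A2M, the plasma protease inhibitor alpha-2-macroglobulin, had 3305, 3325 and 3331 CPM at 100 ug/mL and 3862, 3908 and 3956 CPM at 20 ug/mL, and fell by 0.24 ± 0.04 on the log2 scale (edgeR adjusted p 0.000943). MATN3, a cartilage matrix protein, had 91.9, 90.4 and 96.3 CPM at 100 ug/mL and 105, 114 and 121 CPM at 20 ug/mL. Its libraries at 20 ug/mL were spread more widely, and the call was lost without the highest of them, replicate 3. The log2 fold change of MATN3 was -0.29 ± 0.05 (edgeR adjusted p 0.00196).

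COL4A5, a basement membrane collagen, had 46.5, 47.4 and 45.5 CPM at 100 ug/mL and 53.4, 56.0 and 56.7 CPM at 20 ug/mL. FRAS1, a protein of the epithelial basement membrane, had 324, 317 and 302 CPM at 100 ug/mL and 379, 358 and 364 CPM at 20 ug/mL. Neither gene's groups overlapped, and the log2 fold changes were -0.25 ± 0.05 for COL4A5 and -0.22 ± 0.05 for FRAS1, with edgeR adjusted p-values of 0.0225 and 0.0311. FRAS1 kept its call only without replicate 2 at 20 ug/mL, and COL4A5 only without replicate 1 at 20 ug/mL, among the 6 fits that left out a library. SLC13A3, a sodium-coupled carrier of dicarboxylates, had 55.0, 54.1 and 55.1 CPM at 100 ug/mL and 63.4, 66.0 and 65.1 CPM at 20 ug/mL. All 3 libraries at 100 ug/mL were lower, with a log2 fold change of -0.24 ± 0.04 (edgeR adjusted p 0.00417). The call of SLC13A3 was lost without replicate 2 at 100 ug/mL or replicate 3 at 20 ug/mL.

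In the list of secreted hepatocyte proteins 1 of 21 members was called lower, against 0.0942% of all tested genes, and none higher. The list's median log2 fold change was -0.07, with 16 members below 0. The called member, ITIH2, a heavy chain of the inter-alpha-trypsin inhibitor family, had 1363, 1350.5 and 1359 CPM at 100 ug/mL and 1524, 1543 and 1549 CPM at 20 ug/mL. CFB, complement factor B, falls outside the rule for named genes and was chosen after its values were seen; it had 128, 131 and 128 CPM at 100 ug/mL and 145, 144 and 145 CPM at 20 ug/mL. Both genes separated the doses, with log2 fold changes of -0.18 ± 0.04 and -0.16 ± 0.04 and an edgeR adjusted p of 0.0368 each, and neither call held when any 1 library was left out. APOB, the structural protein of very-low-density lipoprotein, had 23197, 22340 and 20975 CPM at 100 ug/mL and 26848, 26993 and 27383 CPM at 20 ug/mL. Those groups did not overlap either, but the log2 fold change of -0.29 ± 0.08 was not called (edgeR adjusted p 0.201), nor did DESeq2 call it. APOB was called lower with only the 6 libraries in the fit, with no filter on low counts and with the trends on GC content and length removed. ALB, the albumin gene, differed by -0.07 ± 0.05 and was not called.

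Among the higher genes, CYP24A1 had the largest fold change. It had 30.7, 36.9 and 34.6 CPM at 100 ug/mL and 23.9, 27.0 and 25.0 CPM at 20 ug/mL. The lowest library at 100 ug/mL, replicate 1, stood above the highest at 20 ug/mL. The log2 fold change was 0.43 ± 0.08 with an adjusted p of 0.00495 in edgeR, and the call was lost without replicate 2 at 100 ug/mL and without replicate 1 or 3 at 20 ug/mL. MAT1A had 153, 151 and 146 CPM at 100 ug/mL and 130, 130 and 129 CPM at 20 ug/mL. The groups were far apart for their spread, with a log2 fold change of 0.21 ± 0.04 (edgeR adjusted p 0.00615). MAT1A lost its call without replicate 1 or 2 at 100 ug/mL and without replicate 1 or 3 at 20 ug/mL.

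NQO1 had 513, 522 and 523 CPM at 100 ug/mL and 453, 464 and 447 CPM at 20 ug/mL. SQSTM1 had 210, 209 and 208 CPM at 100 ug/mL and 186, 185 and 181 CPM at 20 ug/mL. In both genes every library at 100 ug/mL was higher, and the log2 fold changes were 0.19 ± 0.04 for NQO1 and 0.18 ± 0.04 for SQSTM1, with edgeR adjusted p-values of 0.0166 and 0.0293. With 1 library left out, NQO1 was called only without replicate 2 at 20 ug/mL, and SQSTM1 in none of the 6 fits.

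In the list of NRF2 targets, NQO1 was the 1 member of 19 called by edgeR, against 0.0236% of all tested genes called higher. A positive log2 fold change was found in 18, the median was 0.11, and 11 had higher, non-overlapping groups, against 9.17% of all tested genes. AKR1B10, an aldo-keto reductase, had 57.8, 60.4 and 58.2 CPM at 100 ug/mL and 49.1, 50.5 and 47.4 CPM at 20 ug/mL, with a log2 fold change of 0.26 ± 0.06 and an edgeR adjusted p of 0.0665. OSGIN1, an oxidative stress-induced growth inhibitor, had 52.4, 48.1 and 44.3 CPM at 100 ug/mL and 39.6, 33.9 and 36.3 CPM at 20 ug/mL, with a log2 fold change of 0.40 ± 0.10 and an edgeR adjusted p of 0.138. The doses did not overlap in either gene. HMOX1, heme oxygenase 1, had 51.1, 50.1 and 51.4 CPM at 100 ug/mL and 50.0, 47.2 and 52.2 CPM at 20 ug/mL, which overlapped. SLC7A11, the cystine carrier, was the member with a negative value, -0.12 ± 0.15. With only the 6 libraries in the fit, 8 of the 19 were called higher, against 0.588% of all genes. DESeq2 called 5 of the 19 higher, against 0.202% of the genes to which it gave an adjusted p. These were ABCC3, AKR1B10, NQO1, OSGIN1 and TXNRD1.

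Targets of AHR, the receptor for planar aromatic ligands, had a median log2 fold change of 0.04 over 7 tested members. NQO1 was the 1 called by edgeR, against 0.0236% of all tested genes called higher. CYP1A1, its classical target, had 10.8, 8.81 and 8.09 CPM at 100 ug/mL and 6.56, 6.66 and 6.60 CPM at 20 ug/mL. The groups did not overlap, but the replicates at 100 ug/mL were spread, and the log2 fold change of 0.48 ± 0.13 was not called by edgeR (adjusted p 0.181). It was called by DESeq2 (adjusted p 0.0135) and with only the 6 libraries in the edgeR fit (adjusted p 0.0225).

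The other panel genes reported here were not called and are given as log2 fold changes with their SE. They were -0.16 ± 0.06 for the cholesterol enzyme HMGCS1 and -0.04 ± 0.04 for the chaperone HSPA5. The stress gene TRIB3 had 0.01 ± 0.08, the cell cycle inhibitor CDKN1A 0.02 ± 0.08 and the proliferation marker MKI67 -0.02 ± 0.05. TXNIP, which answers glucose, had -0.11 ± 0.08, and IGFBP1, a secreted binder of insulin-like growth factors, -0.30 ± 0.23. The doses overlapped for IGFBP1, with 27.4, 33.3 and 37.6 CPM at 100 ug/mL and 31.6, 43.4 and 46.7 CPM at 20 ug/mL. CYP1B1 had too few counts to be tested.

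Among the remaining lists no member was called by the edgeR test over 57 libraries. Over all tested genes, 6.71% had an unadjusted p under 0.05 (3.3% higher, 3.41% lower) and 9.17% had higher, non-overlapping groups. Ribosome biogenesis genes had a median of 0.10, all 16 members above 0 and 12 with higher, non-overlapping groups, and 9 had an unadjusted p under 0.05. DESeq2 called none of the 16. NCL, the nucleolar protein nucleolin, had 1946, 1911 and 2014 CPM at 100 ug/mL and 1804, 1743 and 1797 CPM at 20 ug/mL, a log2 fold change of 0.14 ± 0.04 (edgeR adjusted p 0.427). The 13 mitochondrially encoded genes had a median of 0.12, and 8 had higher, non-overlapping groups; 1 had an unadjusted p under 0.05 and DESeq2 called none. Tubulin and actin genes had a median of 0.10, with 12 of 14 above 0, 4 at an unadjusted p under 0.05 and none called by DESeq2. Mitosis and DNA replication genes had medians of 0.04 each over 24 members, and ATF4 targets, p53 targets, heat shock genes and the ER unfolded protein response had medians from -0.05 to 0.02. In these, an unadjusted p under 0.05 was found for 1 of 24 mitosis genes, 3 of 24 DNA replication genes and 1 of 18 ATF4 targets. It was also found for 2 of 17 p53 targets, 1 of 18 heat shock genes and 2 of 18 unfolded protein response genes. The share over all tested genes was 6.71%, and DESeq2 called no member of these lists. The other 12 lists had medians between -0.04 and 0.09. DESeq2 called 2 of their members, named after their values were seen: ALAS1, which starts heme synthesis, higher, and CCN2, a matricellular protein, lower. With only the 6 libraries in the fit, edgeR called 0.588% of all genes higher and 0.973% lower. Called higher were 4 of the 13 mitochondrially encoded genes (MT-ND1, MT-ND2, MT-ND3 and MT-ND4, subunits of complex I). So were 3 of the 14 tubulin and actin genes (ACTG1, TUBA1B and TUBB) and NCL. That fit also called MCM2, ORM1, ORM2 and ALAS1 higher and HSPA1A, TP53INP1, FABP1, SLC2A1, CCN2 and LGR5 lower in these lists. With no filter on low counts, MT-ND1, MT-ND2 and MT-ND3 were called higher, against 0.121% of all genes.

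**Figure D3:**
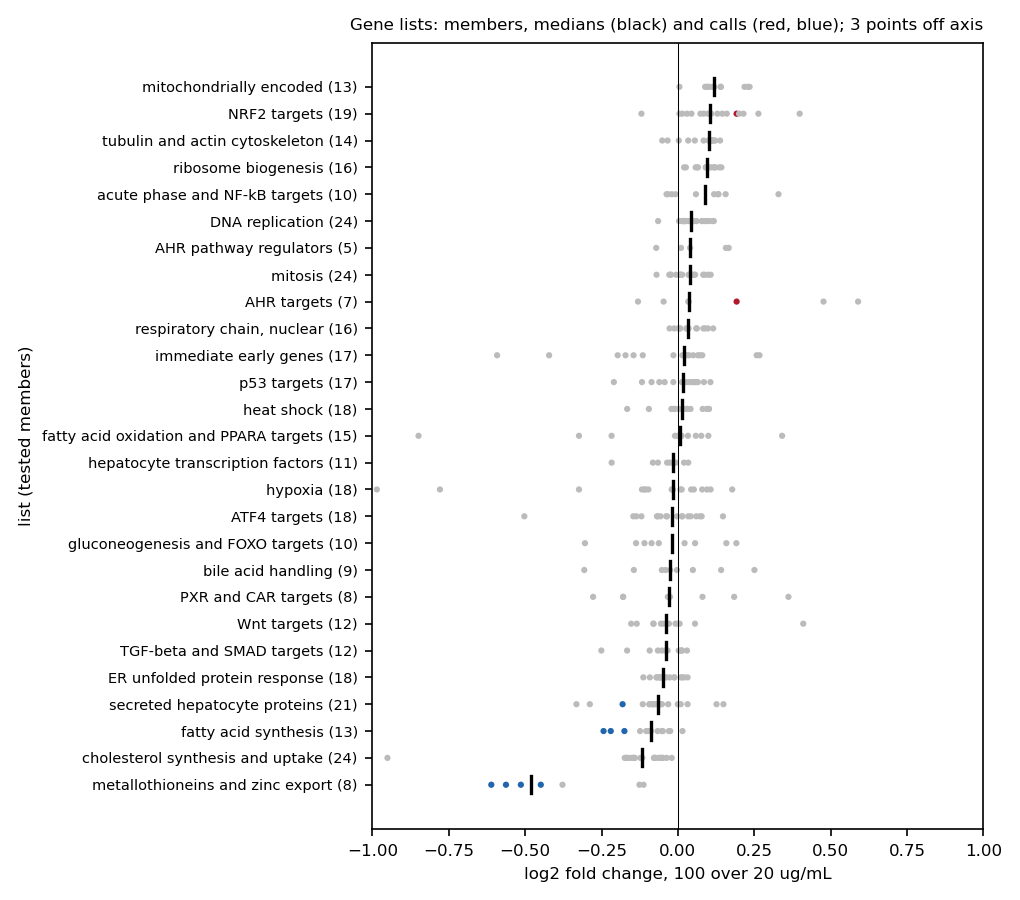
Log2 fold change of 100 over 20 ug/mL for the tested members of each gene list (points), with the list's median as a black bar, calls higher in red and calls lower in blue, and 3 points off the axis. Metallothioneins stand lowest with a median of -0.48, and the 24 cholesterol genes all lie below 0.

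The dose step sits in a series from vehicle to 500 ug/mL. Comparisons with vehicle at 20 and at 100 ug/mL and the step to 500 ug/mL share libraries with the comparison of 100 with 20 ug/mL, so their values stand side by side only. The step from 20 to 100 ug/mL called 20 genes, and the step from 100 to 500 ug/mL, of the same ratio of 5, called 3089 (18.2%), 1351 higher (7.96%) and 1738 lower (10.2%). Against vehicle, 6461 genes were called at 20 ug/mL (38.0%) and 6656 at 100 ug/mL (39.2%). Vehicle has its own set label, so for these contrasts the set and the treatment cannot be told apart, and the slope of expression on GC content was 0.114 to 0.240 per 10 points in the vehicle libraries and between -0.022 and 0.0076 in the 6 libraries compared here.

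Along the series, MT2A averaged 213 ± 15.3 CPM in vehicle, 179 ± 6.12 CPM at 20 ug/mL, 125 ± 9.89 CPM at 100 ug/mL and 60.7 ± 4.04 CPM at 500 ug/mL (SD, n = 3 each). Each dose lay below the one before. MT1G had 62.9 ± 1.31 CPM in vehicle, 54.9 ± 1.67 CPM at 20 ug/mL, 37.2 ± 0.939 CPM at 100 ug/mL and 6.25 ± 0.115 CPM at 500 ug/mL. MT1F had 25.3 ± 2.45 CPM in vehicle, 31.3 ± 1.14 CPM at 20 ug/mL, 20.5 ± 1.19 CPM at 100 ug/mL and 3.72 ± 0.776 CPM at 500 ug/mL, so its level at 20 ug/mL was above vehicle. FN1 averaged 13904 ± 357 CPM in vehicle, 11836 ± 146 CPM at 20 ug/mL, 9779 ± 195 CPM at 100 ug/mL and 5479 ± 709 CPM at 500 ug/mL.

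ACSS2 stood at 134 ± 7.07 CPM in vehicle, 137 ± 0.684 CPM at 20 ug/mL, 115 ± 0.532 CPM at 100 ug/mL and 55.3 ± 1.63 CPM at 500 ug/mL. Vehicle and 20 ug/mL overlapped there. NQO1 stood at 370 ± 6.58 CPM in vehicle, 455 ± 8.68 CPM at 20 ug/mL, 520 ± 5.32 CPM at 100 ug/mL and 818 ± 34.7 CPM at 500 ug/mL, and CYP24A1 at 26.4 ± 0.949, 25.3 ± 1.55, 34.1 ± 3.17 and 52.1 ± 1.16 CPM in the same order. MAT1A had 128 ± 5.69 CPM in vehicle, 130 ± 0.624 CPM at 20 ug/mL, 150 ± 3.58 CPM at 100 ug/mL and 135 ± 1.73 CPM at 500 ug/mL, the highest level being that at 100 ug/mL. CYP1A1 had 8.25 ± 0.724 CPM in vehicle, 6.61 ± 0.0487 CPM at 20 ug/mL, 9.22 ± 1.38 CPM at 100 ug/mL and 62.9 ± 3.75 CPM at 500 ug/mL. SQSTM1 had 207 ± 10.8 CPM in vehicle, 184 ± 2.68 CPM at 20 ug/mL, 209 ± 1.14 CPM at 100 ug/mL and 325 ± 5.01 CPM at 500 ug/mL. MATN3 had 94.2 ± 1.10, 113 ± 8.11, 92.9 ± 3.07 and 75.5 ± 1.47 CPM in the same order. Against vehicle, SQSTM1 was called lower and MATN3 higher at 20 ug/mL, and neither was called at 100 ug/mL (edgeR adjusted p 0.790 and 0.779).

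The comparison of 500 ug/mL with vehicle shares no library with that of 100 with 20 ug/mL. It called 8185 genes (48.2%, 24.0% higher and 24.2% lower), and here too the set and the treatment cannot be told apart. Of the 20 genes called between 100 and 20 ug/mL, all 20 had the same sign and 19 were called in the same direction, MAT1A being the exception with a log2 fold change of 0.08 ± 0.04 (edgeR adjusted p 0.112). The metallothionein list had a median of -2.42 there, with 8 of 8 tested members called lower, and the cholesterol list a median of -0.63, with 22 of 24 called lower and 1 higher.

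**Figure D4:**
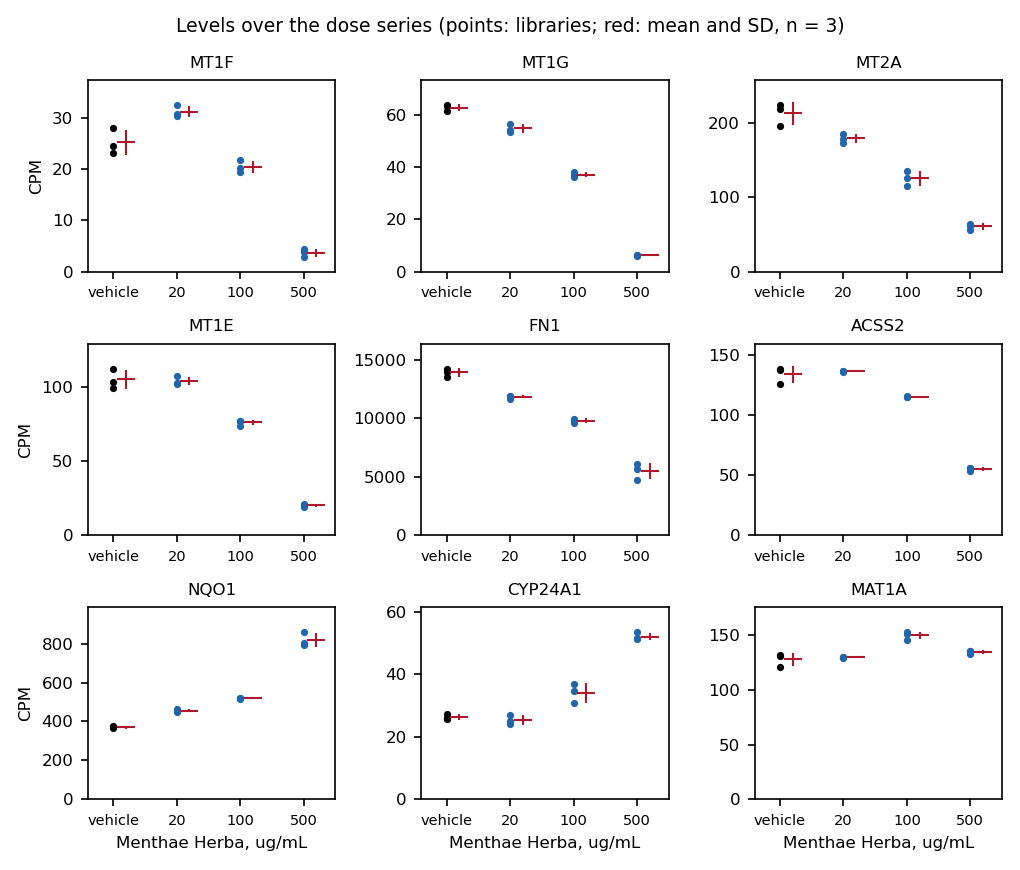
CPM of 9 called genes in vehicle and at 20, 100 and 500 ug/mL of Menthae Herba, with points for libraries and a red cross for the mean and SD of 3. The metallothioneins, FN1 and ACSS2 are lower at 100 than at 20 ug/mL and lowest at 500 ug/mL, NQO1 and CYP24A1 are highest at 500 ug/mL, and MAT1A is highest at 100 ug/mL.

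The same step was compared with that of 3 other extracts, none sharing a library with it, though the recipe of Soyo-san holds Menthae Herba. It called 2 genes in Saposhnikoviae Radix (0.0118%), 611 in Guibi-tang (3.6%; 1.86% higher and 1.74% lower) and 1 in Soyo-san (0.00589%), where 2 libraries a dose give less precision. In Saposhnikoviae Radix 19 of the 20 genes had the same sign and none was called by edgeR. An unadjusted p under 0.05 with the same sign was found there for 10 of the 20 and with the opposite sign for none, against 1043 of all genes in either direction (6.14%); FADS2, ACSS2, A2M, MATN3 and SLC13A3 were among the 10 and no metallothionein was. In Guibi-tang all 20 had the same sign and 12 were called in the same direction. In Soyo-san 19 had the same sign and none was called. There 10 of the 20 had an unadjusted p under 0.05 with the same sign and none with the opposite sign, against 496 of all genes (2.92%), and the metallothioneins MT1E, MT1F, MT1G and MT2A were among the 10.

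The difference between the steps was tested as an interaction in the same edgeR fit. Against Saposhnikoviae Radix no gene was called, 586 had an unadjusted p under 0.05, DESeq2 also called none, and without the filter on low counts 84 were called. MT1G had log2 fold changes of -0.56 ± 0.10 in Menthae Herba and 0.05 ± 0.09 in Saposhnikoviae Radix, a difference of -0.61 ± 0.14 with an adjusted p of 0.836 in edgeR. For none of the 4 called metallothioneins was the difference from Saposhnikoviae Radix, Guibi-tang or Soyo-san called. Against Guibi-tang 22 genes differed (0.13%), 7 with a higher (0.0412%) and 15 with a lower (0.0883%) log2 fold change in Menthae Herba, and DESeq2 called 36.

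Of the 20 genes, 3 were among the 22. SQSTM1 had 0.18 ± 0.04 in Menthae Herba and 0.47 ± 0.04 in Guibi-tang, a difference of -0.29 ± 0.06 (edgeR adjusted p 0.0069). MATN3 had -0.29 ± 0.05 in Menthae Herba and -0.61 ± 0.05 in Guibi-tang, and SLC13A3 had -0.24 ± 0.04 in Menthae Herba and -0.56 ± 0.05 in Guibi-tang. For all 3 genes the change was smaller in Menthae Herba. CYP1A1 had 0.48 ± 0.13 in Menthae Herba, 1.02 ± 0.09 in Saposhnikoviae Radix, 1.40 ± 0.09 in Guibi-tang and 1.58 ± 0.11 in Soyo-san. Its step in Menthae Herba was lower than in Guibi-tang by a log2 difference of -0.93 ± 0.16 (edgeR adjusted p 0.00217). It was lower than in Soyo-san by -1.10 ± 0.17 (edgeR adjusted p 0.000916), where it was the 1 gene called (0.00589%). The difference from Saposhnikoviae Radix, -0.54 ± 0.16, was not called.

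**Figure D5:**
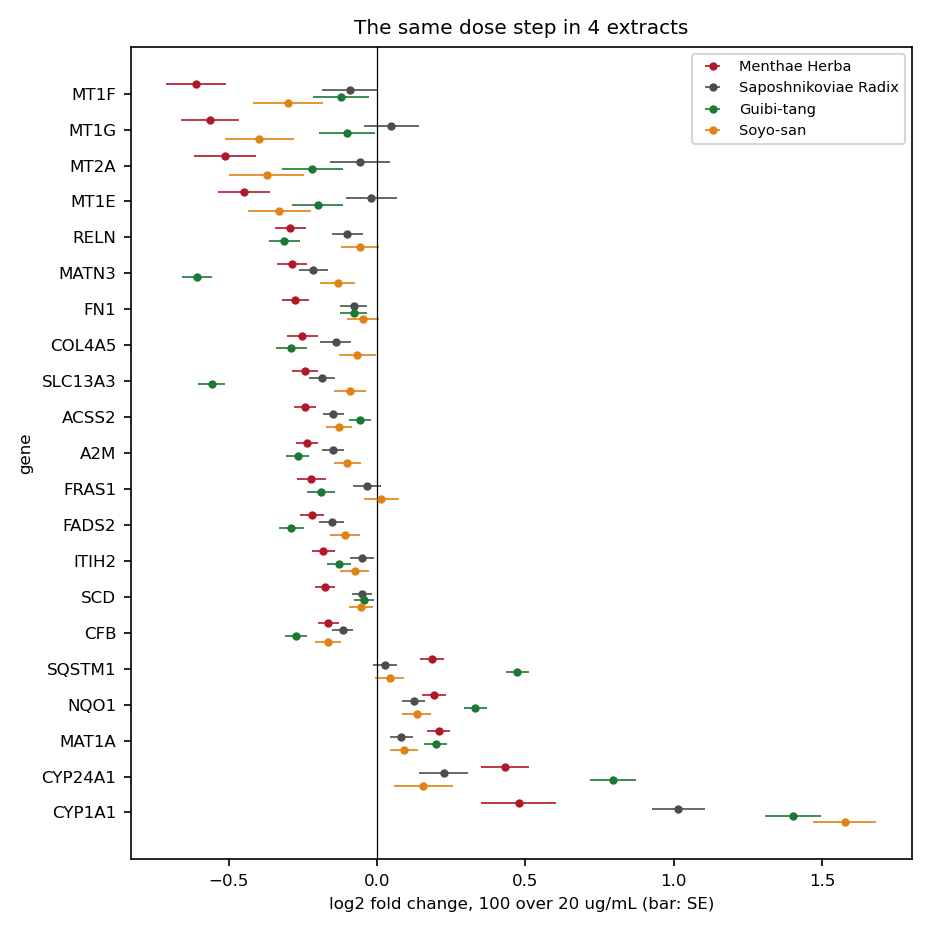
Log2 fold change of 100 over 20 ug/mL, with SE bars, for the 20 called genes and CYP1A1 (rows) in Menthae Herba, Saposhnikoviae Radix, Guibi-tang and Soyo-san. Most points of a gene lie on one side of 0, the metallothioneins lie lowest in Menthae Herba, though their differences from the other extracts were not called, and CYP1A1 lies lowest in Menthae Herba.

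Library measures set the frame for these values. Total counts were 22.4 to 25.3 M at 100 ug/mL and 22.2 to 23.8 M at 20 ug/mL. The share of mitochondrially encoded counts was 13.1 ± 0.322% at 100 ug/mL and 11.9 ± 0.0509% at 20 ug/mL (SD, n = 3 each), and the slope of expression on the log2 of transcript length was -0.024 ± 0.0064 at 100 ug/mL and -0.0076 ± 0.0032 at 20 ug/mL. Both separated the doses, with the smallest p of the exact permutation test, 0.1, and their part in the results was not tested. Removal of the mitochondrially encoded genes left 20 calls, and removal of the trends on GC content and length gave 63 (0.371%), which held all 20.

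Hepatocyte markers were present, 12 of 12 above 1 CPM, and summed to 46601 ± 821 CPM at 100 ug/mL and 53095 ± 1106 CPM at 20 ug/mL (SD, n = 3 each), a difference to which APOB contributes. Among markers of other cells, 4 of 12 for blood, 2 of 10 for stroma, 4 of 8 for endothelium and 3 of 10 for lung and gut were at 0 in all 6 libraries. Their summed levels were 1146 to 1290 CPM at 100 ug/mL and 1160 to 1338 CPM at 20 ug/mL for blood, and 59.7 to 61.3 CPM at 100 ug/mL and 65.5 to 69.3 CPM at 20 ug/mL for stroma. For endothelium they were 5.42 to 5.75 CPM at 100 ug/mL and 5.55 to 6.28 CPM at 20 ug/mL, and for lung and gut 481 to 491 CPM at 100 ug/mL and 492 to 505 CPM at 20 ug/mL. Few genes made up most of these sums. LYZ averaged 1167 CPM at 100 ug/mL and 1218 CPM at 20 ug/mL in the blood list, and ACTA2 50.8 and 55.4 CPM in the stromal list. In the lung and gut list VIL1 averaged 348 and 345 CPM and LGR5 137 and 152 CPM, in the same order. In bulk RNA, fewer cells that express a gene and less RNA per cell cannot be told apart.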

How the data were processed

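RNA of HepG2 cells was sequenced 24 h after treatment; per the labels' protocols, libraries were made with a directional kit and read as 100 bp pairs. Per the submitters' processing notes, reads passed through FastQC 0.11.9, Trim Galore 0.6.5, STAR 2.7.3a and RSEM 1.3.3, on GRCh38. The authors deposited expected counts per gene, not normalized; 9.97% were not whole, and all were rounded. No source used here names the annotation release or the strand setting. GENCODE 29 gave symbols to 57055 of 60675 IDs. Library totals were 17.5 to 38.9 M, with a median of 23.7 M. In the 10 groups used here no libraries of a group were copies (chi-square per gene at least 1.79).

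Genes were tested in R 4.3.3 with edgeR 4.0.16 (quasi-likelihood, TMM, filterByExpr with a minimum count of 10) over 57 libraries in 22 groups, with 35 residual degrees of freedom and a coefficient of variation between replicates of 4.65%. Benjamini-Hochberg adjusted p under 0.05 was called. Named genes were up to 12 called protein-coding genes in each direction with non-overlapping groups and at least 5 CPM, a panel, and up to 4 called members of each list. Not every panel gene is reported here. Members, lists and panel were chosen with earlier results of these data known. Library measures were compared by the exact two-sided permutation test. Alternatives were DESeq2 1.42.0, RLE scaling, other filters, fewer libraries, the replicate block, GC and length offsets and each library left out, where the 2 that remain share the spread of all groups. The removal of mitochondrially encoded genes was added after seeing their share.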

Additional observations from a re-analysis of the deposited data

Results flagged for a closer look

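The dose step differed between Menthae Herba and another extract for 4 of the genes named above, by the edgeR interaction test with Benjamini-Hochberg adjustment over all genes. Against Guibi-tang, the log2 fold change in Menthae Herba differed by -0.29 for SQSTM1 (adjusted p 0.0069), 0.32 for MATN3 (adjusted p 0.0366), 0.31 for SLC13A3 (adjusted p 0.0131) and -0.93 for CYP1A1 (adjusted p 0.00217). Against Soyo-san, that of CYP1A1 differed by -1.10 (adjusted p 0.000916). The extracts belong to different sets, so extract and set cannot be told apart. No single sample was screened as standing apart, since groups of 3 are too small for that screen.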

How the results depend on the processing

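The count of genes called between 100 and 20 ug/mL was 20 (4 higher, 16 lower). It was 47 with DESeq2 (15 higher, 32 lower), 127 with no filter on low counts (43 higher, 84 lower), 231 with only the 6 libraries in the fit (87 higher, 144 lower) and 43 with only the libraries of set 12 (15 higher, 28 lower). With the trends on GC content and length removed it was 63 (22 higher, 41 lower). RLE scaling, a filter at a mean of 1 CPM and removal of the mitochondrially encoded genes each gave 20. With 1 library left out the count ranged from 6 to 16, with 0 to 3 higher and 6 to 13 lower; these fits have fewer libraries. The cause of the other shifts was not tested. All 20 genes kept their sign in the 17 alternatives.

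Libraries with the same replicate number did not deviate together: correlations of their deviations were -0.008, 0.013 and 0.077, and not every library correlated best with its own number. With the replicate number as a block nested in set, 27 genes were called (8 higher, 19 lower). The block with only the 6 libraries gave 316 (141 higher, 175 lower), and the block with the GC and length trends removed gave 95 (33 higher, 62 lower).

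For the difference from the step of Guibi-tang, 22 genes were called, 36 with DESeq2. Without the filter on low counts, 134 genes were called for Guibi-tang, 84 for Saposhnikoviae Radix and 96 for Soyo-san.

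CFB lost its call without the filter, with the block nested in set and with set 12 only, and ITIH2 and FRAS1 lost theirs with set 12 only. CYP1A1 gained one in 5 alternatives, HMGCS1 in both fits of the 6 libraries, and IGFBP1 with no filter and in the blocked fit of the 6 libraries. APOB gained one with no filter, in both fits of the 6 libraries and with the block nested in set. It also gained one with the GC and length trends removed, with and without that block. Counts of 3 libraries a dose limit what can be called: the median SE of a log2 fold change was 0.09 over all genes and 0.06 over genes of more than 5 CPM.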
